A study of Mus musculus with 12 samples.

Results

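The sirtuin genes Sirt1 to Sirt7 were taken from a table of H3K27ac intervals by their symbols, and all 7 were present among the 22264 gene symbols of the table. They held 24 of the 126464 intervals. H3K27ac is histone H3 acetylated at lysine 27, a mark of promoters and enhancers in use. It was profiled by chromatin immunoprecipitation sequencing (ChIP-seq) in 4T1, a line of metastatic mouse mammary carcinoma cells. All cells were treated for 48 h and fell into 6 groups of 2 libraries. Acetate was given at 5 mM, and the inhibitors etomoxir and SB204990 at 50 µM each. Separate pairs of libraries received vehicle, acetate or etomoxir alone, and the other pairs received etomoxir + acetate, both inhibitors, or both inhibitors with acetate. Acetate is a source of acetyl-CoA, etomoxir inhibits the fatty acid importer Cpt1a of mitochondria, and SB204990 inhibits the citrate-cleaving enzyme Acly. The libraries carry 1 of 2 title suffixes, here set 1 and set 2, which the labels do not explain. Nothing in the labels says that libraries of a group came from separate cultures, so p-values measure the spread between these libraries only, which may be technical.

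Sirtuins are NAD+-dependent deacylases. They consume NAD+ as they remove acetyl or longer acyl groups from lysines, so their activity is tied to the metabolic state of the cell. Sirt1, Sirt6 and Sirt7 act mainly in the nucleus, where histones are among their substrates, Sirt2 is largely cytosolic, and Sirt3, Sirt4 and Sirt5 reside in mitochondria. The question here was how the acetyl mark of the chromatin at these genes stood under treatments that add or restrict acetyl-CoA.

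Values are reads per interval multiplied by a factor for each library that the authors derived from a human chromatin spike-in, here called spike-scaled reads. Reads were not divided by the depth of the library, and whether the factor already accounts for depth is not given in the sources used here. When each library was first divided by its total, the median log2 fold change of all genes turned from 0.14 to -0.08 for etomoxir vs. vehicle and from -0.18 to 0.09 for etomoxir + SB204990 vs. vehicle, so levels and directions between treatments hold for the deposited scale. The libraries held 7179165 to 16676442 reads in the intervals of the whole table. The shallowest was set 2 of etomoxir + SB204990, which lay apart from the others at most sirtuins under a scaling described below. Counts of genes and intervals called, and of groups that do not overlap, are also given without this library where they change. Sums over start sites were not refitted without it. Of the 5 epithelial marker genes, 3 had intervals (Epcam, Krt8 and Cdh1), with 27.7 to 43.5 spike-scaled reads per kb in vehicle, whereas Krt7 and Krt18 had none of their own. Leukocyte markers had 10.0 to 21.6 reads per kb (3 of 4 genes with intervals), endothelial markers 19.4 to 35.2 (2 of 2) and the adipocyte marker Adipoq 15.9 (1 of 2). The mark at Pecam1, an endothelial gene, was denser than at Epcam, and its part in the results was not tested.

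The promoters of Sirt1, Sirt2 and Sirt3 are shown because they differ in whether a neighbour starts beside them. Sirt1 starts alone, whereas Sirt2 starts back to back with Nfkbib (an inhibitor of NF-kB), and 1 of the 3 annotated Sirt3 starts (chr7:140881869) lies back to back with that of Psmd13 (a proteasome subunit). The other Sirt3 starts (chr7:140882298 and chr7:140882309, minus strand) lie past the Psmd13 start, so their transcripts run toward it and through the stretch shown. The stretches come from the RefSeq promoter windows of the GRCm38.p6 assembly, are written 5′ to 3′ on the strand of the sirtuin, and leave out annotated untranslated exons. The Sirt1 stretch is chr10:63339051-63339285 on the minus strand (235 bases), and the Sirt2 stretch is chr7:28766641-28766734 on the plus strand (94 bases). The Sirt3 stretch is chr7:140881870-140881967 on the minus strand (98 bases). The last pair are the whole gaps between the closest start sites on opposite strands, which lie 95 bases apart for Sirt2 and Nfkbib and 99 bases apart for Sirt3 and Psmd13. Capitals mark the letters GGGCGG (GC box) and CACGTG (E-box) on either strand.
Sirt1: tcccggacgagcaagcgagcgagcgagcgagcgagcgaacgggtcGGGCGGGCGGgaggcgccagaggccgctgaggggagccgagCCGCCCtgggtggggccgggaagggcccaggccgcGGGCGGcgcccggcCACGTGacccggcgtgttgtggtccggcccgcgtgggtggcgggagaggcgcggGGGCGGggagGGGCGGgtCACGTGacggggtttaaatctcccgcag
Sirt2: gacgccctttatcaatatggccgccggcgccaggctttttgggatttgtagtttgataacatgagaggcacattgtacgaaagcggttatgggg
Sirt3: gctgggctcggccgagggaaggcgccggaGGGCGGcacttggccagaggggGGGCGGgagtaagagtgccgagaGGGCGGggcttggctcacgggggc
The Sirt1 stretch holds GGGCGG at 6 positions, overlaps counted, and CACGTG at 2 positions, and its GC content is 78.3%. The gap of Sirt2 holds none of the motifs searched and has 50.0% GC, while that of Sirt3 holds GGGCGG at 3 positions.

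All 7 sirtuins matched RefSeq windows of 250 bases before a start site, 9 windows in all, since Sirt3 and Sirt6 each have a second start. GGGCGG occurred on either strand in 6 of the 9 windows, 1 for each sirtuin but Sirt4. Over all genes it occurred in 32.7% of the 32851 windows. CCAAT occurred in 3 of the 9, those of Sirt2, Sirt3 and Sirt5 (33.8% of all windows), and CACGTG in 1, that of Sirt1 (6.02%). CCGGAAG occurred in 3 of the 9, of Sirt3, Sirt6 and Sirt7 (6.91%). The NRF1 motif occurred in a Sirt6 window (3.74%), and TATAAA in none of the 9 (12.4%). The Sirt1 window had 39 CpG dinucleotides, at the 98.7th percentile of all windows, and the other sirtuin windows had 12 to 21 against a median of 6.

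Of the 24 sirtuin intervals, 8 belonged to Sirt5, 5 to Sirt1, 4 to Sirt4, 3 to Sirt2, 2 to Sirt3 and 1 each to Sirt6 and Sirt7. Interval coordinates are those of the table, on mm10. The intervals ran from 209 to 27973 bp, with a median of 1028 bp. The table placed 12 in introns, 5 at promoters, 4 at transcription ends, 2 between genes and 1 in an exon. In 15 the mean over the 12 libraries was at least 10 spike-scaled reads, the minimum for testing, and in 9 it was lower. Of the 24, 5 covered an annotated sirtuin start site (GENCODE vM21, basic protein-coding transcripts), 1 each for Sirt1, Sirt4, Sirt5, Sirt6 and Sirt7.

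The start sites of Sirt2 and Sirt3 lay in intervals that the table assigned to their neighbours. All 4 annotated starts of Sirt2 fell in the Nfkbib interval (chr7:28763133-28768992), and the 3 of Sirt3 in the Psmd13 interval (chr7:140880156-140886140). What the table lists as Sirt2 and Sirt3 is therefore weaker signal inside the gene bodies. The first Sirt2 interval ran from chr7:28773423 to 28774498, and the nearer of the Sirt3 pair from chr7:140877757 to 140879157. A distant upstream start of Sirt1 (chr10:63381704) likewise lay in an interval given to Dnajc12. The Sirt6 interval (chr10:81620429-81630894) also covered the start of Ankrd24, and the Sirt7 interval (chr11:120609811-120637783) also covered the starts of Mafg and Pcyt2, so their values cannot be split between these genes.

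**Figure D1:**
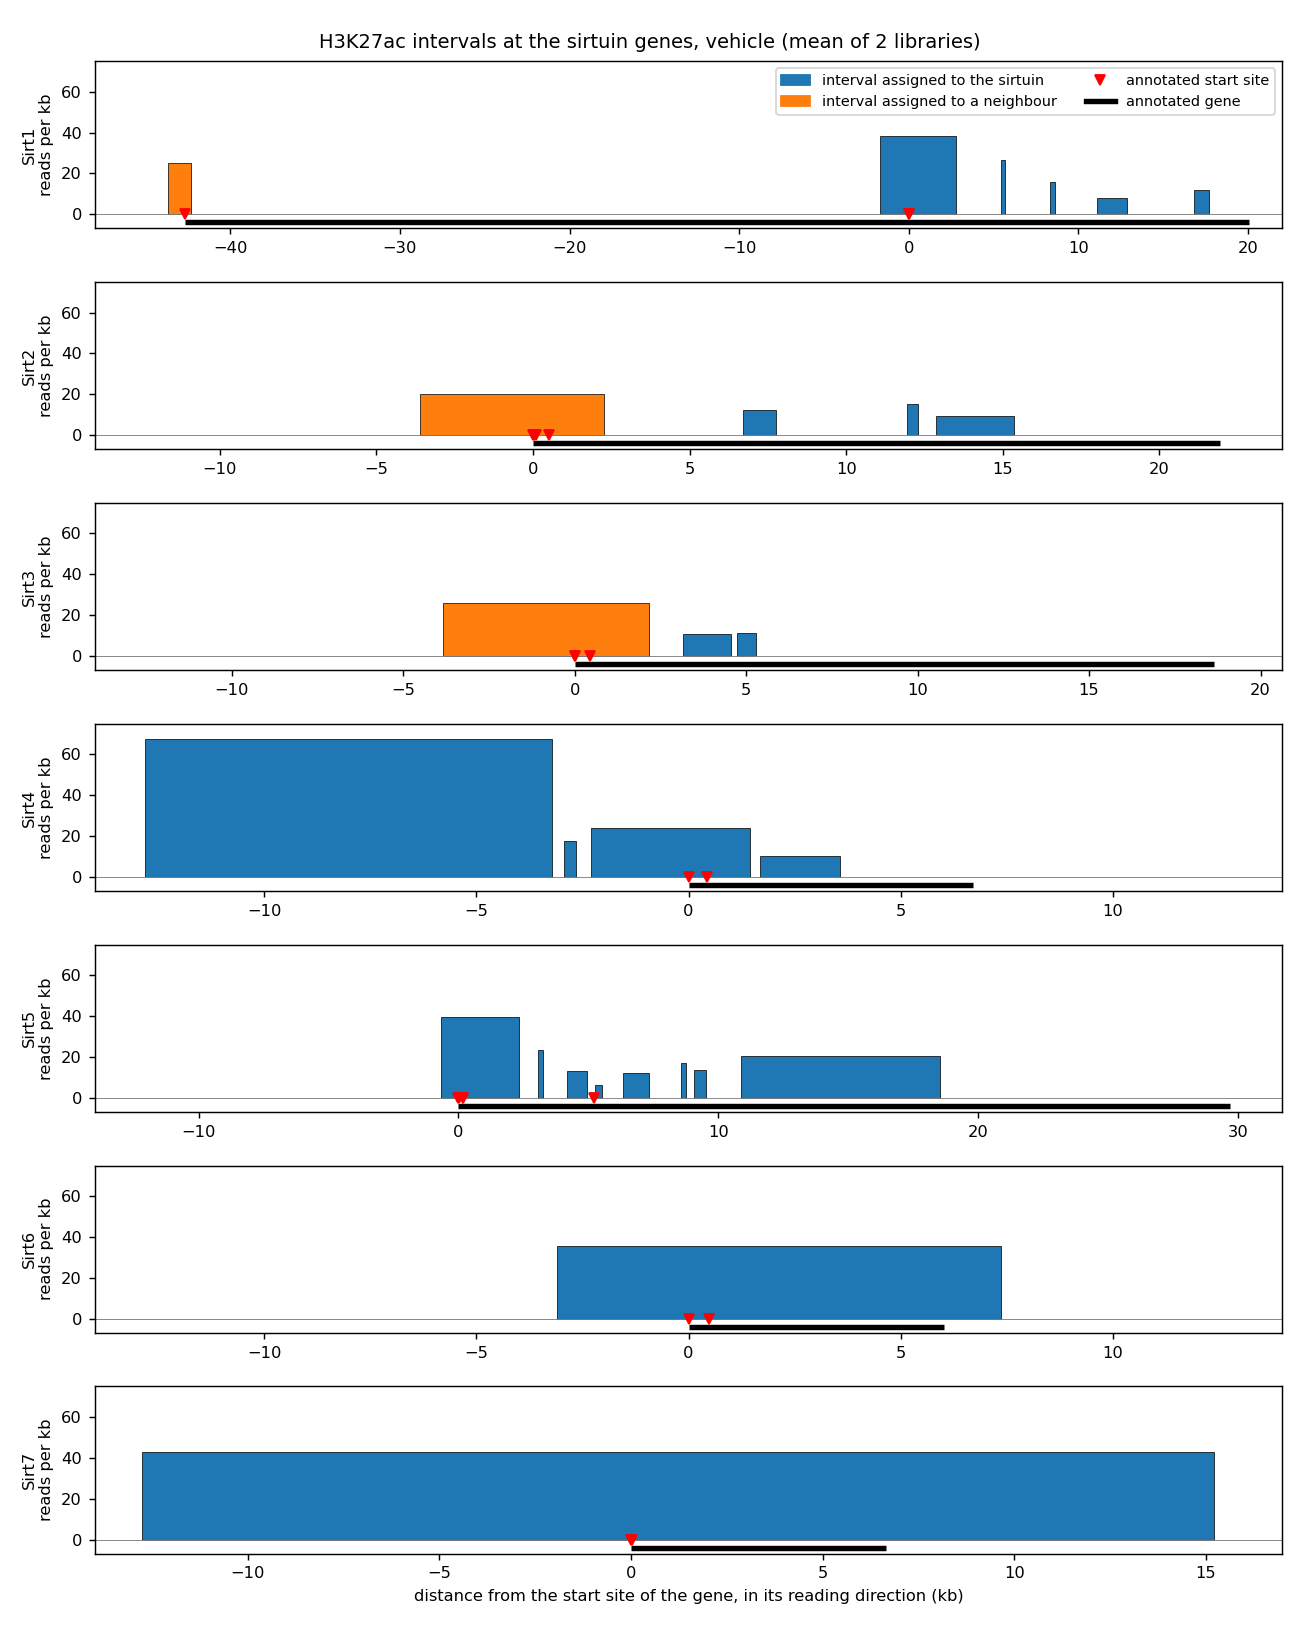
Intervals at each sirtuin gene by distance from its start site in kb (x axis, in the reading direction of the gene), with the spike-scaled reads per kb in vehicle (y axis, mean of 2 libraries) as bar height. Blue bars are intervals the table assigned to the sirtuin and orange bars those assigned to a neighbour, red triangles mark annotated starts and black lines the gene. The Sirt2 and Sirt3 starts sit under orange bars of 20.0 and 26.0 reads per kb, and the tallest bar, 67.7, lies upstream of Sirt4.

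Levels are compared between genes per kb of interval. In the interval that covers the start site, vehicle held 43.1 ± 3.33 reads per kb (SD, n = 2) at Sirt7, which deacetylates histone H3 at lysine 18, 39.5 ± 1.25 at Sirt5, a mitochondrial desuccinylase, and 38.4 ± 3.33 at Sirt1, the deacetylase of p53 and FoxO factors. Next came Sirt6, a deacetylase of histone H3 at telomeres and promoters, with 35.4 ± 3.37. Neighbours in this order of 4 differed by less than the sum of their SDs. Sirt7 exceeded Sirt5 in 12 of 12 libraries, but Sirt5 exceeded Sirt1, and Sirt1 exceeded Sirt6, in 5 of 12 each.

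Below a gap of 9.35 reads per kb, larger than the summed SDs of 5.86 and present in 12 of 12 libraries, came the start interval of Sirt3, the main mitochondrial deacetylase. It held 26.0 ± 2.48 reads per kb. Sirt4, a mitochondrial lipoamidase and ADP-ribosyltransferase, had 23.9 ± 6.41, and Sirt2, a tubulin and histone H4 deacetylase, had 20.0 ± 1.19. Neighbours among these 3 differed by less than their summed SDs. Against 10510 intervals that cover a protein-coding start, vehicle levels ranged from the 23.3rd percentile (Sirt2) to the 80.8th (Sirt7).

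**Figure D2:**
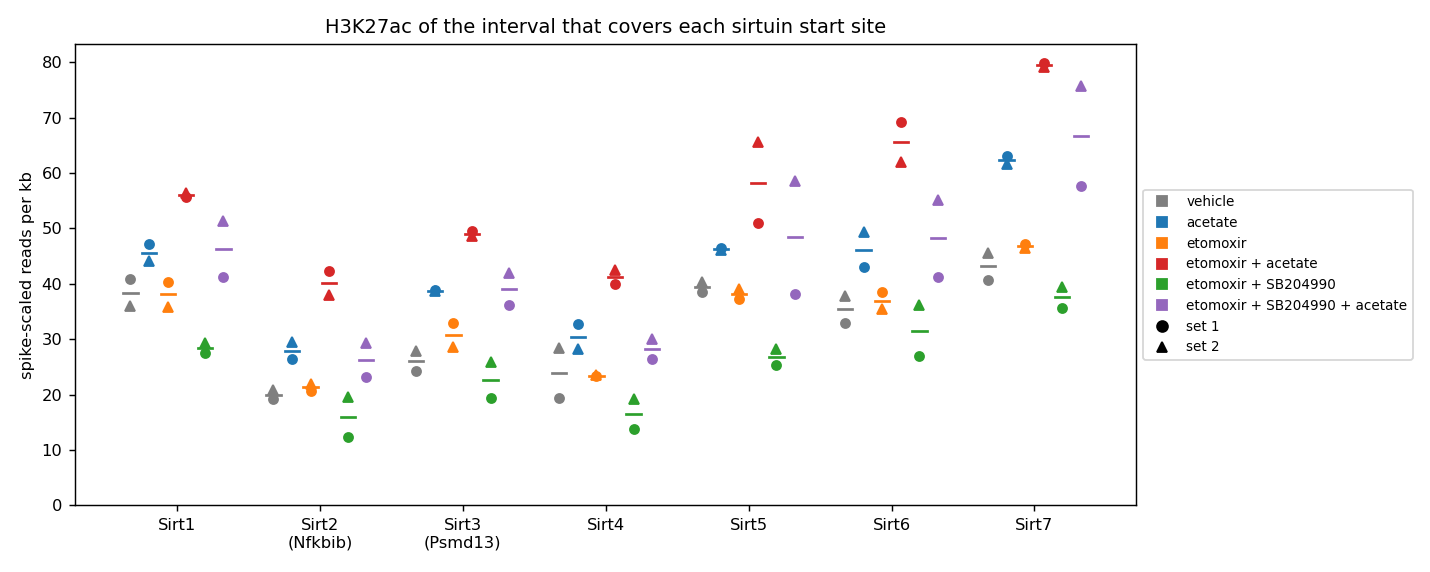
Spike-scaled reads per kb (y axis) in the interval covering each sirtuin start site, for each library (circles set 1, triangles set 2) with a dash at the group mean. For Sirt2 and Sirt3 it is the interval assigned to Nfkbib and Psmd13. Etomoxir + acetate gave the highest mean for every gene, from 40.2 at Sirt2 to 79.5 at Sirt7.

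Sirt4 held the densest interval, but not at its start. An interval of 9580 bp upstream of the gene (chr5:115487947-115497526) made up 84.7% of the Sirt4 value, and its vehicle level of 67.7 reads per kb stood at the 99.7th percentile of all intervals. The interval at the Sirt4 start (chr5:115483274-115487031) made up 11.5%. The upstream interval begins 3.22 kb from the nearest Sirt4 start and ends 9.15 kb before that of Pxn, the gene of the adhesion protein paxillin. It contains 2 annotated small nuclear RNA genes and 1 processed pseudogene. The signal listed under Sirt4 therefore came mostly from a region between protein-coding genes.

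At Sirt5, the largest share was not at the start either. An interval of 7664 bp inside the gene (chr13:43376355-43384018) carried 52.3% of its value and the start interval (chr13:43364839-43367842) 34.9%, although the start interval was denser in vehicle, with 39.5 against 20.4 reads per kb. At Sirt1, the start interval (chr10:63336272-63340730) carried 81.4%. In Sirt6 and Sirt7, a single interval carried all of it.

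Summed over the intervals of each gene, the sirtuins held from 29 reads (Sirt3) to 2921 reads (Sirt7) in a library before scaling. Counting error alone was thus 18.6% of the lowest Sirt3 value and 1.85% of the highest Sirt7 value. Sums are spike-scaled reads from here on and are compared between libraries, not between genes.

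For Sirt7, vehicle held 1141 and 1272 spike-scaled reads in sets 1 and 2, acetate 1763 and 1725, etomoxir 1319 and 1298, and etomoxir + acetate 2235 and 2212. With etomoxir + SB204990 the values were 999 and 1103, and with acetate added to both inhibitors 1614 and 2116. Each library with acetate was above every library without it. This order and those below span both sets, whose factors were set apart, so they depend on the scale between the sets. For Sirt6, vehicle held 345 and 395, acetate 450 and 516, etomoxir 402 and 371, etomoxir + acetate 725 and 648, etomoxir + SB204990 282 and 378, and all 3 agents 432 and 578. The same separation held for Sirt6, though the lowest acetate-treated value, 432, was close to the highest value without acetate, 402.

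For Sirt1, vehicle held 208 and 204, acetate 250 and 240, etomoxir 210 and 198, and etomoxir + acetate 342 and 312. The values were 141 and 172 with etomoxir + SB204990 and 215 and 277 with all 3 agents. Both etomoxir + SB204990 libraries were below all others. Sirt5 held 283 and 344 in vehicle, 392 and 392 in acetate, 316 and 312 in etomoxir, 545 and 580 in etomoxir + acetate, 182 and 273 in etomoxir + SB204990 and 327 and 488 with all 3 agents. Here 1 acetate-treated library, the set 1 library with all 3 agents, lay within the range of libraries without acetate.

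Sirt4 held 812 and 713 in vehicle, 1149 and 865 in acetate, 822 and 860 in etomoxir, 1251 and 1157 in etomoxir + acetate, 636 and 493 in etomoxir + SB204990 and 833 and 1098 with all 3 agents. Set 1 was the higher in acetate (1149 against 865) and set 2 with all 3 agents (833 against 1098). For Sirt2, the values were 31.8 and 51.5 in vehicle, 59.2 and 62.0 in acetate, 52.0 and 38.9 in etomoxir and 131 and 84.5 in etomoxir + acetate. They were 25.5 and 58.0 in etomoxir + SB204990 and 66.6 and 67.6 with all 3 agents. For Sirt3, they were 17.8 and 24.6 in vehicle, 19.3 and 38.8 in acetate, 25.7 and 24.1 in etomoxir, 58.0 and 63.4 in etomoxir + acetate, 11.6 and 40.0 in etomoxir + SB204990 and 23.3 and 40.8 with all 3 agents. Sets differed most for this pair, the sirtuins with the fewest reads.

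Both libraries of etomoxir + acetate exceeded the other 10 libraries for 7 of 7 sirtuins, a pattern found in 79.2% of the 19458 genes tested. This pattern and the next ones compare libraries across the sets, whose factors were set apart. Both libraries of etomoxir + SB204990 were below the other 10 for Sirt1, Sirt4, Sirt5 and Sirt7, against 24.4% of genes. Acetate alone exceeded vehicle without overlap for 6 of 7, all but Sirt3 (84.2% of genes). Etomoxir exceeded vehicle without overlap for Sirt4 and Sirt7 (40.2% of genes), and etomoxir + SB204990 was below vehicle without overlap for Sirt1, Sirt4, Sirt5 and Sirt7 (25.5%). Leaving out set 2 of etomoxir + SB204990, its set 1 library was below the other 10 for 7 of 7 (90.2% of genes) and below vehicle for 7 of 7 (91.9%).

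**Figure D3:**
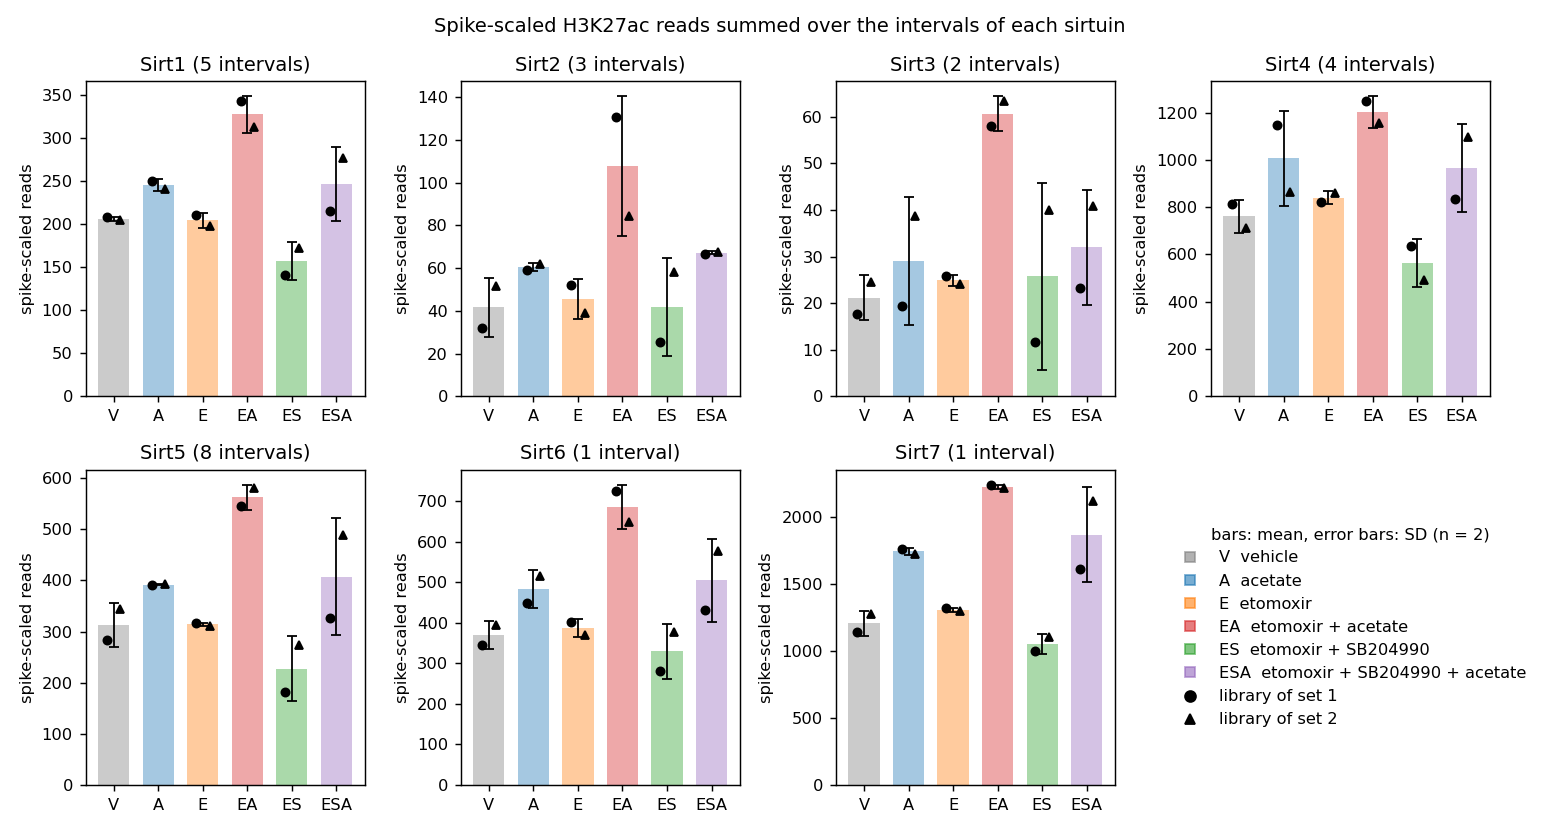
Spike-scaled reads summed over the intervals of each sirtuin (y axis, a separate scale in each panel) in the 6 treatments (x axis), with bars at the mean, error bars for the SD (n = 2) and 1 point per library. The etomoxir + acetate bar is the tallest in every panel.

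Acetate was compared with its absence as the mean of 3 log2 fold changes, without inhibitor, with etomoxir and with both inhibitors, on the log2(value + 1) scale. The test was limma's moderated test across all genes, and a gene was called at an adjusted p under 0.05. All 7 sirtuins passed the test and were higher with acetate, and 88.2% of all genes did too. The rise was 1.44-fold for Sirt1 (log2 fold change 0.52 ± 0.13 SE, limma adjusted p = 0.000646), 1.47-fold for Sirt4 (0.56 ± 0.11, adjusted p = 0.000127) and 1.52-fold for Sirt6 (0.61 ± 0.12, adjusted p = 9.71e-05). Sirt5 rose 1.59-fold (0.67 ± 0.13, adjusted p = 8.93e-05), Sirt7 1.63-fold (0.70 ± 0.10, adjusted p = 1.45e-05), Sirt3 1.63-fold (0.71 ± 0.29, adjusted p = 0.0253) and Sirt2 1.81-fold (0.85 ± 0.22, adjusted p = 0.00102). The direction was the same in 6 of 6 same-set pairs for each gene.

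These rises were those of the genome at large. The median log2 fold change of all genes was 0.63, and the sirtuins departed from it by between -0.11 (Sirt1) and 0.22 (Sirt2). When the libraries were scaled to each other by median of ratios, which removes a shift common to all intervals, the median over genes was -0.01, no sirtuin passed the test (adjusted p = 0.999 for each), and the log2 fold changes of Sirt1, Sirt4 and Sirt6 were below 0 (-0.12, -0.09 and -0.04). Dividing each library by its total before the spike-in factor was applied, the shift was 0.43 and again 0 sirtuins were called. The sirtuin calls, and the direction for these 3 genes, thus depend on how the libraries were scaled.

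**Figure D4:**
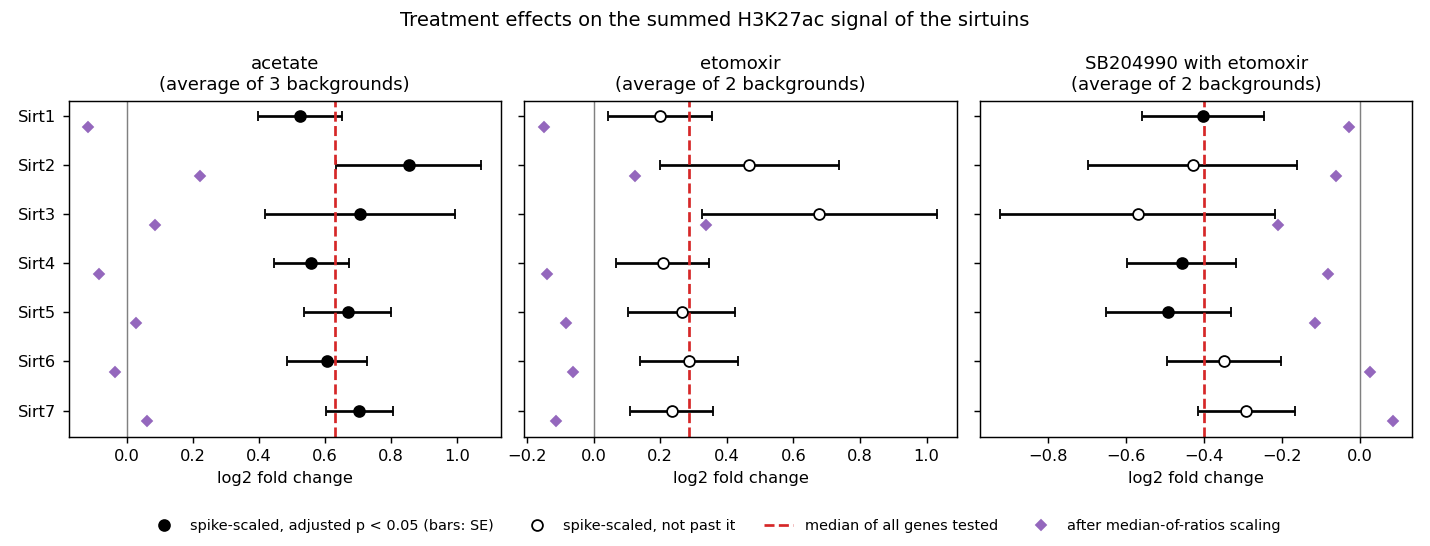
Log2 fold changes of the summed spike-scaled reads of each sirtuin (points, error bars SE) for the average effects of acetate, etomoxir and SB204990, with the median of all genes as a dashed line and values after median-of-ratios scaling as diamonds. Filled points passed the test. Acetate points sit around the dashed line at 0.63 and the diamonds around 0.

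In the separate backgrounds, acetate alone raised no sirtuin past the threshold vs. vehicle, and no gene of the 19458 passed either in limma (0.0% called). An unadjusted p under 0.05 was found for 8341 genes, of which 1 was a sirtuin, Sirt7. By edgeR 0 sirtuins were called and by DESeq2 1, where DESeq2 called 19.1% of all genes higher. The Sirt7 fold change was 1.45 (log2 0.53 ± 0.18, limma adjusted p = 0.101), and the others were between 1.19-fold (Sirt1) and 1.48-fold (Sirt2), against a median of 0.48 on the log2 scale over all genes. The count rested on libraries outside this pair of groups through the shared estimate of spread: it was 3 without either etomoxir + SB204990 library, where 61.1% (without set 1) and 61.2% (without set 2) of genes were called higher, and 1 without either library with all 3 agents (11.9% in each). With the set as a term in the fit it was 1, Sirt7 (20.0% of genes). Upon etomoxir treatment, acetate raised 7 of 7 (78.2% of genes were called higher). Log2 fold changes ran from 0.52 for Sirt4 to 1.25 for Sirt3, around a median of 0.79 over all genes. The count fell to 3 without the set 2 etomoxir library (37.9% of genes) or without the set 1 etomoxir + acetate library (28.8%), and no sirtuin was called after median-of-ratios scaling here or with both inhibitors.

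With both inhibitors present, acetate raised 5 of 7 (57.7% of genes were called higher), with log2 fold changes of 0.65 for Sirt1, 0.77 for Sirt4, 0.84 for Sirt5, 0.61 for Sirt6 and 0.82 for Sirt7 and a median of 0.64 over all genes. Sirt2 (0.79 ± 0.38, limma adjusted p = 0.0756) and Sirt3 (0.49 ± 0.50, adjusted p = 0.384) did not pass. The count was 2 without the set 1 library of etomoxir + SB204990 (19.1% of genes), 7 without that of set 2 (91.4%), and 0 without the set 2 library with all 3 agents (0.0%). With the set as a term Sirt2 passed too (65.0%). The acetate effect did not differ detectably between backgrounds for any sirtuin: the interaction of acetate with etomoxir ran from 0.13 ± 0.28 (Sirt4) to 0.88 ± 0.71 (Sirt3) and that with etomoxir + SB204990 from 0.11 ± 0.71 (Sirt3) to 0.51 ± 0.32 (Sirt5). No gene passed either interaction test (0.0% called by limma), 0 sirtuins had an unadjusted p under 0.05, and edgeR and DESeq2 also called 0. These comparisons share the acetate and vehicle libraries.

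Etomoxir alone changed no sirtuin past the threshold vs. vehicle (0.0154% of genes were called higher). In limma 0 sirtuins had an unadjusted p under 0.05, and edgeR and DESeq2 called 0, with limma log2 fold changes from -0.01 ± 0.22 for Sirt1 to 0.24 ± 0.50 for Sirt3. Averaged over cells without and with acetate, etomoxir also called 0 of 7 in limma (0 with an unadjusted p under 0.05), edgeR and DESeq2, against 0.298% of genes called higher. The values were 0.20 ± 0.16 for Sirt1, 0.21 ± 0.14 for Sirt4, 0.23 ± 0.12 for Sirt7, 0.26 ± 0.16 for Sirt5, 0.29 ± 0.15 for Sirt6, 0.47 ± 0.27 for Sirt2 and 0.68 ± 0.35 for Sirt3, beside a median of 0.29 over all genes. After median-of-ratios scaling 5 of the 7 were below 0, none of them called: Sirt1 at -0.15, Sirt4 at -0.14, Sirt7 at -0.11, Sirt5 at -0.08 and Sirt6 at -0.06, whereas Sirt2 stood at 0.12 and Sirt3 at 0.34. On the deposited scale 2 sirtuins were called without either etomoxir + SB204990 library (32.3% of genes were higher without set 1 and 32.6% without set 2), and in a fit of the 4 groups of this contrast alone 6 were (60.6%).

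Adding SB204990 to etomoxir lowered 3 of 7 sirtuins on average over cells without and with acetate, a share near the 45.0% of genes called lower. Sirt5 fell to 0.711 of its value (log2 fold change -0.49 ± 0.16, limma adjusted p = 0.0280), Sirt4 to 0.728 (-0.46 ± 0.14, adjusted p = 0.0276) and Sirt1 to 0.757 (-0.40 ± 0.16, adjusted p = 0.0414). All 4 same-set pairs were lower for each of these 3 and for Sirt7. Sirt6 (-0.35 ± 0.15, adjusted p = 0.0543) and Sirt7 (-0.29 ± 0.12, adjusted p = 0.0554) lay just beyond the threshold, and Sirt2 (-0.43 ± 0.27) and Sirt3 (-0.57 ± 0.35) had the widest errors. The median over all genes was -0.40. After median-of-ratios scaling no sirtuin was called, nor was any by limma without an intensity trend (0.00514% of genes were lower), while DESeq2 called 5 (47.6%). The spike-in factors were set apart in each set of libraries, and with the set as a term in the fit 5 sirtuins were called lower, Sirt6 and Sirt7 beside these 3 (57.9% of genes). Within set 1 the log2 fold change was -0.62 for Sirt1, -0.48 for Sirt4 and -0.76 for Sirt5, and within set 2 it was -0.19, -0.44 and -0.22. Sirt2 changed sign between the sets (-0.98 in set 1, 0.12 in set 2), and so did Sirt3 (-1.19 and 0.04).

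The count of 3 hung on single libraries. It was 7 without the set 2 library of etomoxir + SB204990 (85.1% of genes were lower) and 5 without that of all 3 agents (54.7%). It was 2 without either vehicle or either acetate library (27.5% to 42.3%), 1 without the set 1 library of etomoxir + SB204990 (20.6%), and 0 without either etomoxir library, either etomoxir + acetate library or the set 1 library of all 3 agents (0.0% in each). The number of sirtuins called thus moved with the share of all genes called. Etomoxir + SB204990 vs. vehicle called 0 of 7 in limma, edgeR and DESeq2 (0.0% of genes were lower, 0.00514% higher). Sirt4 (-0.44 ± 0.20) and Sirt5 (-0.48 ± 0.23) were the 2 sirtuins with an unadjusted p under 0.05. The count was 1, in the lower direction, without either etomoxir + SB204990 library, Sirt4 without set 1 (0.139% of genes were lower) and Sirt5 without set 2 (12.3%).

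Averaged over backgrounds, acetate raised 14 of the 15 tested sirtuin intervals, against 77.2% of the 63903 intervals tested in the table. Log2 fold changes ran from 0.50 ± 0.13 at the Sirt1 start to 0.96 ± 0.24 in a Sirt4 interval inside the gene (chr5:115481153-115483029), around a median of 0.64 over all intervals. These calls, like those on etomoxir, on both inhibitors and for SB204990 below, ended under median-of-ratios scaling, total-sum scaling and the share of reads times the factor, each with 0 sirtuin intervals called. Under the first the average acetate effect was below 0 at the Sirt1 start (-0.14), upstream of Sirt4 (-0.11), at the Sirt5 start (-0.09) and at Sirt6 (-0.04). The interval that did not pass lay at the 3′ end of Sirt1 (chr10:63321362-63322195). The count was 9 without the set 1 vehicle library (59.9% of intervals). On etomoxir, acetate raised 9 of 15 (56.4% of intervals), and on both inhibitors 9 of 15 (27.4%). The first count ranged from 3 to 5 without any single etomoxir or etomoxir + acetate library (8.05% of intervals for the count of 3 without set 1 of etomoxir + acetate, and 10.5% for 4 without set 2 of etomoxir), and the second was 3 without set 1 (8.28%) and 14 without set 2 (71.6%) of etomoxir + SB204990 and 1 without set 2 of all 3 agents (3.31%). Acetate vs. vehicle called 0 of 15 (0.0955% of intervals), with 4 at an unadjusted p under 0.05, and DESeq2 called 1 (10.7%), as did the fit with the set as a term (3.26%). Etomoxir vs. vehicle called 0 (0.0563%; 0 unadjusted), its average effect 0 (0.419%; 5 unadjusted) and etomoxir + SB204990 vs. vehicle 0 (0.0219% lower; 4 unadjusted), and DESeq2 and edgeR called 0 in each of these 3. Without a library of etomoxir + SB204990 these counts were at most 2.

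Within Sirt4, the upstream interval rose less with acetate (0.54 ± 0.11, limma adjusted p = 2.54e-06) than the start interval (0.65 ± 0.15, adjusted p = 7.44e-05) and the interval inside the gene (0.96 ± 0.24, adjusted p = 0.000278), and the difference between them was not tested. Within Sirt5, the start interval rose by 0.54 ± 0.14 (adjusted p = 0.000429) and the long interval inside the gene by 0.73 ± 0.13 (adjusted p = 2.28e-07). The largest own interval of Sirt2 (chr7:28779610-28782083) rose by 0.89 ± 0.22 (adjusted p = 0.000246) and that of Sirt3 (chr7:140877757-140879157) by 0.64 ± 0.26 (adjusted p = 0.0230). SB204990 lowered 3 sirtuin intervals (19.2% of intervals were lower), namely the Sirt4 upstream interval (-0.46 ± 0.13, adjusted p = 0.0125), the Sirt4 start interval (-0.53 ± 0.19, adjusted p = 0.0335) and the long Sirt5 interval (-0.59 ± 0.16, adjusted p = 0.0109). None of the intervals named here passed for acetate or SB204990 after median-of-ratios scaling. On the deposited scale, the count of intervals lowered by SB204990 was 3. That count was 13 without the set 2 library of etomoxir + SB204990 (67.2% of intervals), 7 without that of all 3 agents (26.4%), and 0 without any single etomoxir, etomoxir + acetate or set 1 library of all 3 agents (at most 0.801%).

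The start sites of Sirt2 and Sirt3 are read in the intervals that the table gives to Nfkbib and Psmd13. The Sirt2 and Nfkbib start interval held 112 and 122 spike-scaled reads in vehicle, 155 and 172 in acetate, 121 and 129 in etomoxir and 248 and 223 in etomoxir + acetate. It held 72.1 and 115 in etomoxir + SB204990 and 136 and 172 with all 3 agents. The Sirt3 and Psmd13 start interval held 145 and 166 in vehicle, 232 and 232 in acetate, 197 and 171 in etomoxir, 296 and 291 in etomoxir + acetate, 116 and 155 in etomoxir + SB204990 and 216 and 251 with all 3 agents. In both, each acetate-treated library exceeded its same-set partner without acetate, whereas at the Sirt4 start the set 2 value was 107 in vehicle and 106 in acetate.

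Summed instead over the intervals that cover a GENCODE start site, a definition chosen after the values were seen, all 7 sirtuins rose with acetate on average, by 0.53 (Sirt1) to 0.71 (Sirt2) on the log2 scale, with a median of 0.61 and 99.2% of 11784 genes called higher. Sirt2 was then nearer to the other sirtuins, at 0.71 ± 0.11 in place of 0.85 ± 0.22. Acetate alone vs. vehicle then called Sirt2 (limma adjusted p = 0.0298), Sirt3 (adjusted p = 0.0163) and Sirt7 (adjusted p = 0.0169), against 68.9% of genes. Acetate raised 7 of 7 on etomoxir (94.3% of genes) and 7 of 7 on both inhibitors (92.8%). SB204990 lowered all 7, by 0.29 to 0.53 on the log2 scale, against 88.7% of genes.

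Set 2 of etomoxir + SB204990 lay below the other libraries for 5 sirtuins once the shift common to all intervals was removed by median-of-ratios scaling. Sirt4 then stood at 485 in this library and between 747 and 1238 in the other 11, that is, at 0.534 of their median. Sirt7 was at 0.679 of the median of the other libraries, Sirt5 at 0.700, Sirt1 at 0.727 and Sirt6 at 0.820, each below all 11 others. Sirt2 was at 1.00 and Sirt3 at 1.36, inside the range of the others. The library was likewise below the other 11 for 56.1% of all genes, so its place at 5 of 7 sirtuins is near the share over all genes. At the Sirt4 upstream interval the ratio was 0.491. All these ratios hold for median-of-ratios scaling, where the factor of this library was 0.984. Total-sum scaling gave it a factor of 1.27, so its place may differ there, and it was not computed. This library had the fewest reads, and the part of depth in these ratios was not tested.

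**Figure D5:**
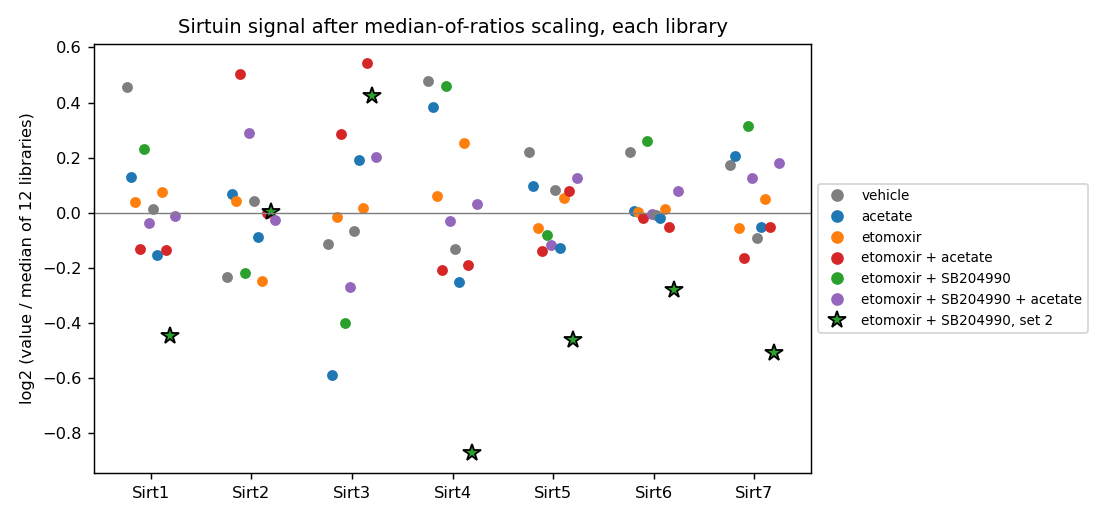
Sirtuin signal after median-of-ratios scaling in each of the 12 libraries, as the log2 ratio to the median of the 12 (y axis), with the etomoxir + SB204990 library of set 2 as a star. The star is the lowest point for Sirt1, Sirt4, Sirt5, Sirt6 and Sirt7, and not for Sirt2 and Sirt3.

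Genes around the sirtuins in NAD+ metabolism, among their partners and substrates, and among the classical histone deacetylases were counted beside them. These lists, like the sirtuins, were chosen with results of these data known. Of the 19 genes that make or consume NAD+, 14 were tested and 14 rose with acetate on average (median 0.66 against 0.63 for all genes), 0 changed with etomoxir and 8 fell with SB204990. Over all genes, 88.2% were called higher with acetate, 0.298% higher with etomoxir and 45.0% lower with SB204990, and the counts of the lists are to be read against these shares. Without set 2 of etomoxir + SB204990 the shares were 98.5%, 32.6% and 85.1%, and 14, 5 and 12 of the 14 genes were called. Farthest from the median of all genes were Naprt, which makes NAD+ from nicotinic acid (log2 fold change 1.35 ± 0.31, limma adjusted p = 0.000383), Bst1, an ADP-ribosyl cyclase (0.98 ± 0.13, adjusted p = 1.44e-05), and Nmrk1, a nicotinamide riboside kinase (0.78 ± 0.23, adjusted p = 0.00312). With etomoxir the farthest were Parp2, a poly(ADP-ribose) polymerase (0.77 ± 0.32), Cd38, an NAD+ glycohydrolase (0.19 ± 0.19), and Nmnat2, an NAD+ synthase of neurons (0.19 ± 0.13), none past the threshold. None of them passed after median-of-ratios scaling.

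Of the 18 partners and substrates, 15 were tested and 15 rose with acetate (median 0.65), 2 rose with etomoxir and 7 fell with SB204990, against 88.2%, 0.298% and 45.0% of all genes. Without that library 15 rose with acetate, 7 rose with etomoxir and 12 fell with SB204990. Foxo1, a forkhead factor that Sirt1 deacetylates, rose by 0.88 ± 0.29 (limma adjusted p = 0.00689) with acetate, and Ppargc1a, the coactivator PGC-1α, by 0.41 ± 0.13 (adjusted p = 0.00546). After median-of-ratios scaling 0 of the 19458 genes were called for acetate or for SB204990, so the calls of all 3 lists in both comparisons ended there. Among those that rose with etomoxir was Mlycd, malonyl-CoA decarboxylase and a target of Sirt4 (0.91 ± 0.18, limma adjusted p = 0.0174), which did not pass after median-of-ratios scaling (adjusted p = 0.998). Glud1, glutamate dehydrogenase, stood at 0.63 ± 0.21 (adjusted p = 0.181).

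Of the 11 classical histone deacetylases, 10 were tested and 10 rose with acetate (median 0.67), 0 changed with etomoxir and 6 fell with SB204990, against the same 88.2%, 0.298% and 45.0% of all genes. Without that library the counts were 10, 3 higher with etomoxir and 10. Farthest from the median of all genes under acetate were Hdac11 (0.82 ± 0.15, limma adjusted p = 5.99e-05), Hdac5 (0.81 ± 0.12, adjusted p = 1.54e-05) and Hdac1 (0.76 ± 0.12, adjusted p = 2.07e-05), and none of the 10 passed after median-of-ratios scaling. Under etomoxir they were Hdac7 (0.12 ± 0.34), Hdac8 (0.45 ± 0.17) and Hdac5 (0.21 ± 0.15), none past the threshold.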

How the data were processed

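H3K27ac ChIP-seq signal was measured in 12 4T1 libraries. Per the study's methods the authors aligned reads with nf-core/chipseq v1.2.2 to mm10 joined to the human GRCh38 build and scaled each library by its human spike-in share, divided by the highest factor. The deposited signal is a read count per interval times that factor, and the 2 libraries with factor 1 hold read counts as deposited by the authors. Replicates behind an interval are not given in the sources used here, and factors were set apart in each set. Division by the factor gave whole reads, within 0.001 read, for 100.0% of values in each library.

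Values were summed per gene symbol, genes and intervals with a mean of at least 10 were kept, and log2(value + 1) was fitted with limma v3.58.1 (R v4.3.3, intensity trend, 6 group means, Benjamini-Hochberg over 19458 genes or 63903 intervals). The fit was tested on simulated data with 200 genes changed in etomoxir + acetate. That setting had no shift common to all genes and no library apart from the others. It therefore does not bear on calls made under such a shift or resting on single libraries. Alternatives were other scalings, filters, a pseudocount of 10, edgeR v4.0.16 and DESeq2 v1.42.0 on recovered reads, a replicate block, each comparison alone, each library left out and intervals within 5 kb of the start. Sums over start-site intervals were added after the data were seen.

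Named were all 7 sirtuins, the start interval and largest interval of each, and per pathway list up to 3 genes farthest from the median of all genes for acetate and for etomoxir. One gene that this rule names is not reported here. One Sirt4 interval named for its size of change was chosen after its values were seen. The members and lists were chosen with earlier results of these data known. Same-numbered libraries were checked for pairing, as the limits describe. Sequences are from RefSeq, and start sites from GENCODE vM21. Read totals bound only the counting error.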

Additional observations from a re-analysis of the deposited data

How the results depend on the processing

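Calls of sirtuins depended on the scaling of the libraries. With median-of-ratios scaling, total-sum scaling or the share of reads times the factor, 0 genes and 0 intervals were called for acetate on etomoxir, acetate on both inhibitors, the average acetate effect and the average SB204990 effect. The first 2 scalings remove a shift common to all genes by construction. Under median-of-ratios and total-sum scaling the log2 fold change fell below 0 for acetate on etomoxir at Sirt1 (-0.19 and -0.062) and Sirt4 (-0.35 and -0.23), and under the first alone at Sirt5 (-0.030), Sirt6 (-0.045) and Sirt7 (-0.11). For acetate on both inhibitors total-sum scaling gave -0.017 at Sirt1 and -0.052 at Sirt6. The average acetate effect became -0.12 and -0.099 at Sirt1, -0.085 and -0.067 at Sirt4 and -0.037 and -0.019 at Sirt6, and per interval -0.14 and -0.13 at the Sirt1 start, -0.095 and -0.077 at the Sirt5 start, -0.11 and -0.088 upstream of Sirt4 and -0.037 and -0.019 at Sirt6. Median-of-ratios scaling gave -0.0022 in a Sirt1 interval (chr10:63326146-63327922) and -0.0030 in the Dnajc12 interval.

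Acetate vs. vehicle called 1 gene by DESeq2 (19.1% of genes called higher), 1 with a replicate block (20.0%) and 1 within 5 kb of the start. It called 3 genes with only its own libraries (61.5%) and 3 over start-site sums (68.9%). Of the intervals it called 1 by DESeq2 (10.7% of intervals), 1 with the block (3.26%), 1 at a mean of at least 50 and 3 with only its own libraries. With only their own libraries, acetate on both inhibitors called 0 genes and 0 intervals, acetate on etomoxir 14 intervals, the average etomoxir effect 6 genes (60.6% of genes) and 7 intervals (29.3% of intervals), and the average SB204990 effect 0 of each. The average SB204990 effect called 5 genes at a mean of at least 50 (65.2% of genes called lower), by DESeq2 (47.6%) and with the block (57.9%). It called 7 over start-site sums (88.7%) and 0 without an intensity trend. Its intervals numbered 1 without a filter, 7 at a mean of at least 50, 6 by DESeq2 and 0 without the trend. Counts in this section without a share of all genes or intervals beside them describe the settings. They are not to be read as results about the sirtuins. Acetate on both inhibitors called 0 intervals without the trend, and the average acetate effect 7 intervals at a mean of at least 50, where fewer intervals were tested. Other causes were not tested.

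Leaving out each library in turn, genes called ranged from 0 to 3 for acetate vs. vehicle, 3 to 7 for acetate on etomoxir, 0 to 7 for acetate on both inhibitors, 6 to 7 for the average acetate effect, 0 to 2 for the average etomoxir effect, 0 to 7 for SB204990 and 0 to 1 for etomoxir + SB204990 vs. vehicle. Intervals ranged from 0 to 2, 3 to 13, 1 to 14, 9 to 15, 0 to 2, 0 to 13 and 0 to 2 in the same order. A group left with 1 library is assumed to vary like the others. Same-numbered libraries did not deviate together in every pair of groups (15 pairs, r over intervals from -0.149 to 0.354). This correlation cannot show an offset common to all intervals of a set, such as factors set apart in each set could give. The labels do not say what the number marks, so the block was not treated as a pairing and is given as an alternative. With the block 7 sirtuin genes were called for acetate on etomoxir (83.1% of genes called higher) and 6 for acetate on both inhibitors (65.0%). For the average acetate effect it was 7 (90.3%). Of 1733 other gene values, 1556 kept their side of the threshold (80 of them changed sign without a call), 110 lost the call and 52 gained it. A further 15 changed sign where the main fit or the other fit made a call. Of 1197 interval values, 1019 kept their side (49 with a change of sign), 124 lost the call and 44 gained it. A further 10 changed sign where either fit made a call. Over all genes, the average acetate effect called 17167 higher by limma and 17033 by edgeR on recovered reads, and acetate vs. vehicle called 0 by limma and edgeR and 3725 by DESeq2.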

Other observations

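As a description over 12 libraries, the level of each sirtuin relative to the median of all genes in a library was set beside those of the 15534 genes with a mean of at least 50, its own left out. Sirt4 was most like Vmp1 and Ankrd17 (Pearson r of 0.99 each), Sirt7 most like Hip1r and Timp2 (0.98 each) and Sirt3 most like Cldn22 and Gm45267 (0.95 each). Sirt1 was most like Sfxn3 and Usf3 (0.94 each), and Sirt2 most like Map4 (0.94) and Yeats4 (0.92). The likeness was lower for Sirt5, with Pla2g4a (0.87) and C78334 (0.86), and for Sirt6, with Ankrd42 and Kif23 (0.83 each). Between sirtuins r ran from -0.83 (Sirt3 and Sirt4) to 0.82 (Sirt1 and Sirt4). These libraries share treatments, factors and depths, and the highest of many candidates is high by selection.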
